A study of Mus musculus with 6 samples.

Results

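The genes described here encode the semaphorins, plexins, neuropilins, ephrins, Eph receptors, netrins and Unc5 receptors, chosen by their gene names (Sema, Plxn, Nrp1 and Nrp2, Efna, Efnb, Epha, Ephb, Ntn1, Ntn3, Ntn4, Ntn5 and Unc5). The rule found 61 of the 23420 genes in the table, and the 43 with at least 10 reads in at least 3 of the 6 libraries are reported by value. Mesenchymal stromal cells (MSCs), the adherent, fibroblast-like cells that grow out of marrow in culture, came from the femurs of female C57BL/6 mice aged 6 to 8 weeks. Both groups carried an AP2 retrovirus that also encodes eGFP. Ctl MSCs (3 libraries) carried the empty AP2 backbone, and MSC-TPr (3 libraries) carried it with the thymoproteasome subunits β1i (Psmb9), β2i (Psmb10) and β5t (Psmb11), the catalytic set that thymic cortical epithelium uses, joined by self-cleaving peptides. Polyadenylated RNA of the cultured cells was sequenced, and the comparison asks which guidance genes differed with the thymoproteasome. Each group is a retrovirally transduced culture, and nothing in the sources used here says that its 3 libraries came from separate cultures or animals, so the p-values measure the spread between these libraries, which may be technical.

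Guidance genes were named for steering growing axons, and the same proteins guide blood vessels, migrating cells and bone cells. Semaphorins are secreted or membrane-bound ligands that bind plexins, and most of the secreted class 3 semaphorins need a neuropilin co-receptor. Ephrins and Eph receptors both sit in membranes and signal in both directions where cells touch, whereas netrins are laminin-related secreted ligands that act through Unc5 and Dcc-type receptors. In marrow, Sema3a and Sema4d are known for acting on osteoblasts and osteoclasts, and the pair ephrin-B2 and Ephb4 for signals between those cells.

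The libraries held 16158756 to 22158887 reads on genes, so that 3 reads, taken as the floor of detection, corresponded to 0.139 to 0.181 CPM (reads on a gene, scaled to the same total of gene reads in every library). The transduced genes did not separate the labels. Psmb9 measured 0.801 to 3.38 CPM in Ctl MSCs and 0.553 to 1.24 CPM in MSC-TPr, Psmb10 8.38 to 27.8 and 8.97 to 17.3 CPM, and Psmb11 no more than 6 reads in any library. Directions below are therefore between the libraries labelled Ctl MSC and MSC-TPr. Libraries numbered 1 also stood apart from the others of their label. For 22 genes of cell division the mean log2 CPM was 6.53 in Ctl MSC 1, where Ctl MSC 2 and 3 had 3.25 and 3.24, and it was 3.31 in MSC-TPr 1, where MSC-TPr 2 and 3 had 6.42 and 6.49. Ctl MSC 1 was thus high with MSC-TPr 2 and 3, and MSC-TPr 1 was low with Ctl MSC 2 and 3. Psmb9 and Psmb10 split the libraries in the same way. In Ctl MSC 1, MSC-TPr 2 and MSC-TPr 3, Psmb9 was at 3.38, 1.24 and 1.205 CPM and Psmb10 at 27.8, 17.3 and 15.2 CPM. In Ctl MSC 2, Ctl MSC 3 and MSC-TPr 1 they were at 0.801, 0.827 and 0.553 CPM and at 8.81, 8.38 and 8.97 CPM. Psmb11 did not split so, at 2, 6 and 1 reads against 4, 2 and 4. Whether Ctl MSC 1 and MSC-TPr 1 carry the right labels was not tested. An exchange would change what every fold change over the 6 libraries means. Beside the fit over all 6 libraries, fits are therefore given without both libraries numbered 1, where the label and the cell division level cannot be told apart, and with the cell division level as a covariate. At a like cell division level, Ctl MSC 1 stands against MSC-TPr 2 and 3, and MSC-TPr 1 against Ctl MSC 2 and 3. The covariate fit therefore rests on the 2 libraries whose labels are in doubt. The fit without both libraries numbered 1 takes its control spread from Ctl MSC 2 and 3 alone. Their counts were closer than those of any other pair, with a chi-square per gene of 4.90. MSC-TPr 2 and 3 gave 51.5, and the remaining pairs 66.95 to 212.1. The small p-values of that fit may therefore rest on a technical spread.

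Of 11 MSC markers, 10 were above the floor and Thy1 was at or under 3 reads in every library. Their summed level was 3480 to 9561 CPM in Ctl MSCs and 2219 to 14470 CPM in MSC-TPr. The haematopoietic markers Ptprc, Itgam, Itgax and Cd3e, 4 of the 7 summed here, were at or under 3 reads throughout. The 7 summed to 2.96 to 10.2 and 1.90 to 14.2 CPM. Cd68 was at 1.63 to 9.66 CPM in Ctl MSCs and 0.788 to 14.2 CPM in MSC-TPr, Csf1r at up to 0.835 CPM and Lyz2 at up to 0.483 CPM. Cdh5, Tie1 and Emcn of 7 endothelial markers were also at or under 3 reads throughout (summed 1.27 to 6.19 and 2.41 to 24.7 CPM, with Vwf alone at 21.4 CPM in MSC-TPr 1). The same held for Sox10, Rbfox3 and Snap25 of 7 Schwann cell and neuron markers (summed 5.07 to 6.89 and 3.32 to 7.33 CPM). Most of that sum was Tubb3, at 3.64 to 5.13 and 2.05 to 6.68 CPM. Among mesenchymal lineages, 6 osteoblast markers, of which Bglap and Ibsp were at or under 3 reads, summed to 476 to 1368 and 653 to 1761 CPM. Spp1 made up most of this, at 435 to 1323 and 607 to 1708 CPM, and Sp7 reached no more than 0.2415 CPM. The 6 adipocyte markers, of which Adipoq and Plin1 were at or under 3 reads, summed to 235 to 331 and 265 to 312 CPM. For 6 pericyte and smooth muscle markers the sum was 472 to 570 and 116 to 1065 CPM. Acta2 made up most of it, at 471 to 566 and 115 to 1055 CPM, and Rgs5, Cspg4, Myh11 and Des reached no more than 0.604 CPM. Fewer cells of a type and less RNA per cell cannot be told apart in such bulk libraries, and the part of these markers in the results was not tested.

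Among the 43 reported guidance genes, 8 were lower in every MSC-TPr library than in every Ctl MSC library, and none was higher in every one. These were the receptors Plxnc1, Epha3, Ephb3, Ephb4 and Epha1 and the ligands Sema4f, Efna1 and Sema3c. The 8 made up 18.6% of the 43, beside 12% of all tested genes lower and 10.6% higher without overlap. The read minimum bears on this tally, since Plxnc1 met it through Ctl MSCs alone, at 17, 59 and 52 reads against 4, 4 and 6. Among the genes that missed it, Epha4 was higher and Ntn3 and Unc5a were lower in every MSC-TPr library. Over the 6 libraries 13 guidance genes were higher in MSC-TPr and 30 lower, with a median log2 fold change of −0.45, beside 0.01 over all tested genes. No guidance gene passed the call rule (edgeR's quasi-likelihood test with a Benjamini-Hochberg adjusted p under 0.05, and a size of 0.5 or more for the log2 fold change), beside 0.401% of 11974 tested genes called lower and 0.0251% called higher. At an unadjusted p under 0.05, edgeR gave 9 of the 43 lower (20.9%) and 0 higher, beside 8.23% of all tested genes lower and 6.81% higher. DESeq2 at the same adjusted threshold called 6 of the 43 lower and 0 higher, beside 3.24% and 1.8% of its 13253 genes. These 6 were Epha3, Plxnc1, Ephb3, Sema4f, Efna1 and Plxnb1, with DESeq2 adjusted p from 2.33e-05 for Epha3 to 0.0259 for Plxnb1. Outside the 43, DESeq2 also called Epha4 higher, and edgeR called Sema3g higher without both libraries numbered 1. Both genes missed the read minimum and are given with their reads below. Without both libraries numbered 1, edgeR called 16 lower and 4 higher, which is 37.2% and 9.3% of the 43, beside 19.4% lower and 20.6% higher of 12122 tested genes. With the cell division covariate 12 were called lower and 1 higher, which is 27.9% and 2.33%, beside 7.38% and 4.78% of all tested genes.

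**Figure D1:**
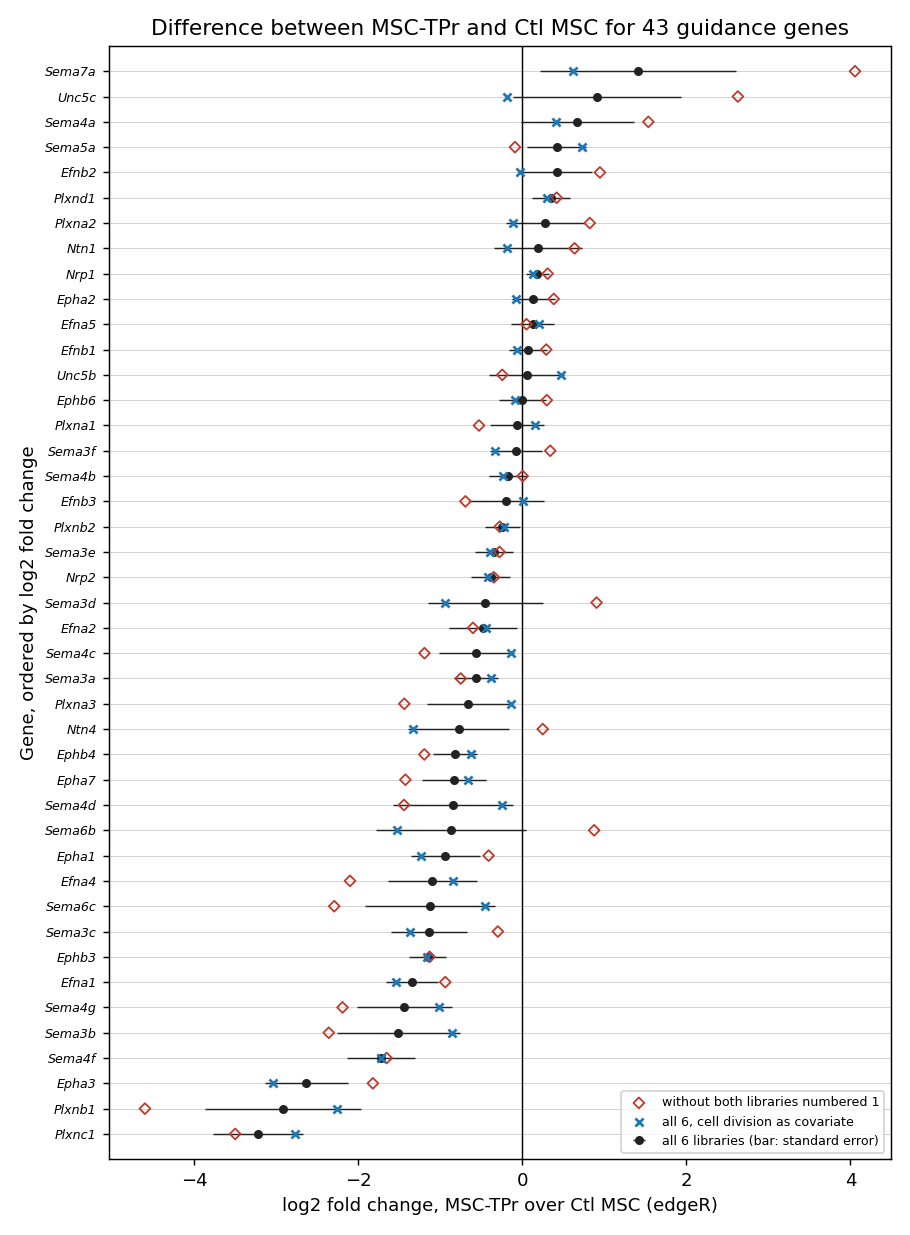
Log2 fold change of MSC-TPr over Ctl MSC (horizontal axis) for each of the 43 reported guidance genes, from edgeR over all 6 libraries with its standard error as the bar, without both libraries numbered 1 (red diamonds) and with the cell division covariate (blue crosses). Over all 6 libraries Plxnc1, at −3.22, lies farthest to the left, 30 genes lie below 0 and 13 above, and no gene passed the adjusted threshold.

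Among the receptors, plexin C1, which binds Sema7a, had the lowest log2 fold change of any reported guidance gene in edgeR over the 6 libraries. Plxnc1 (chromosome 10, 94790866 to 94944835, mm10) measured 1.03, 3.15 and 2.87 CPM in Ctl MSCs, given here and below in the order of libraries 1, 2 and 3, against 0.221, 0.237 and 0.278 CPM in MSC-TPr. All MSC-TPr libraries lay close to the detection floor, at 4, 4 and 6 reads against 17, 59 and 52, and below the lowest Ctl MSC library. The group means were 2.35 ± 1.15 and 0.245 ± 0.0294 CPM (SD, n = 3 each). The log2 fold change was −3.22 (SE 0.54, edgeR adjusted p = 0.0774), and Plxnc1 passed without both libraries numbered 1 (−3.50, edgeR adjusted p = 0.000827) and with the covariate (−2.78, edgeR adjusted p = 0.00972). Leaving out Ctl MSC 1 alone also brought it past the threshold (edgeR adjusted p = 0.0258).

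Epha3, an EphA receptor tyrosine kinase that binds ephrin-A5, was among the 3 lowest in log2 fold change over the 6 libraries. Epha3 (chromosome 16, 63543534 to 63864175) was at 60.7, 27.7 and 27.8 CPM in Ctl MSCs against 3.10, 6.62 and 8.95 CPM in MSC-TPr. The groups were well separated, and the library at either end was the one numbered 1. The means were 38.7 ± 19.0 and 6.22 ± 2.95 CPM, and the log2 fold change was −2.63 (SE 0.51, edgeR adjusted p = 0.0971). It passed without both libraries numbered 1 (−1.82, edgeR adjusted p = 0.000915) and with the covariate (−3.04, edgeR adjusted p = 0.000153).

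Plexin B1, a receptor for Sema4d, was also among the lowest, but overlapped between groups. Plxnb1 (chromosome 9, 109095389 to 109119917) measured 1.99, 10.4 and 8.71 CPM in Ctl MSCs against 2.05, 0.177 and 0.556 CPM in MSC-TPr. The pair numbered 1 was level, and the other 2 libraries of each label stood far apart. The log2 fold change was −2.91 over the 6 libraries (SE 0.95, edgeR adjusted p = 0.238), −4.60 without the pair numbered 1 (edgeR adjusted p = 0.00054) and −2.26 with the covariate (edgeR adjusted p = 0.00733).

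Of the 3 reported EphB receptors, which bind ephrin-B ligands, Ephb3 and Ephb4 were lower in every MSC-TPr library, and Ephb6 overlapped between groups (8.88 to 15.2 CPM in Ctl MSCs, 9.34 to 12.9 CPM in MSC-TPr). Ephb3 (chromosome 16, 21204755 to 21223305) measured 7.67, 7.26 and 6.67 CPM in Ctl MSCs against 3.38, 2.84 and 3.48 CPM in MSC-TPr. It varied little within a label, including the libraries numbered 1, with means of 7.20 ± 0.501 and 3.23 ± 0.344 CPM. The log2 fold change was −1.15 over all libraries (SE 0.22, edgeR adjusted p = 0.102), −1.13 without the pair numbered 1 (edgeR adjusted p = 0.00716) and −1.16 with the covariate (edgeR adjusted p = 0.0137).

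Ephb4, the ephrin-B2 receptor (chromosome 5, 137350109 to 137378669), was at 47.9, 72.0 and 71.5 CPM in Ctl MSCs against 46.2, 26.4 and 36.1 CPM in MSC-TPr. Ctl MSC 1 and MSC-TPr 1 nearly met, and the separation came from the other libraries. The fitted log2 fold change was −0.82 (SE 0.27, edgeR adjusted p = 0.240), −1.19 without the pair numbered 1 (edgeR adjusted p = 0.00312) and −0.63 with the covariate (edgeR adjusted p = 0.0342). Epha1, another EphA receptor (chromosome 6, 42358487 to 42373268), was low, at 2.96, 1.92 and 1.93 CPM and 0.664, 1.24 and 1.62 CPM. Its groups did not overlap, but MSC-TPr 3 came close to Ctl MSC 2. Epha1 shares 6.01% of its exon length with Zyx on the other strand. Its log2 fold change was −0.94 (SE 0.42, edgeR adjusted p = 0.361), and it passed only with the covariate (−1.23, edgeR adjusted p = 0.0345) among these 3 fits.

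Of the ligands, Sema4f, a membrane-bound semaphorin (chromosome 6, 82911885 to 82939769), measured 6.64, 11.6 and 11.6 CPM in Ctl MSCs against 1.66, 4.02 and 3.38 CPM in MSC-TPr. The lowest Ctl MSC library was above the highest MSC-TPr library, and within each label the library numbered 1 was the lowest. Means were 9.97 ± 2.88 and 3.02 ± 1.22 CPM, and the log2 fold change was −1.72 (SE 0.41, edgeR adjusted p = 0.154). It passed without the pair numbered 1 (−1.65, edgeR adjusted p = 0.00133) and with the covariate (−1.73, edgeR adjusted p = 0.0353).

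Efna1, which encodes ephrin-A1, a ligand of EphA receptors such as Epha2 (chromosome 3, 89271733 to 89281142), measured 13.6, 9.07 and 9.21 CPM against 3.10, 3.78 and 5.66 CPM. Every MSC-TPr library was below every Ctl MSC library, with means of 10.6 ± 2.57 and 4.18 ± 1.32 CPM. The log2 fold change was −1.34 (SE 0.32, edgeR adjusted p = 0.154), −0.94 without the pair numbered 1 (edgeR adjusted p = 0.020) and −1.54 with the covariate (edgeR adjusted p = 0.00548).

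Sema3c, a secreted semaphorin that binds neuropilins (chromosome 5, 17574281 to 17730268), measured 62.9, 22.2 and 24.3 CPM in Ctl MSCs against 11.9, 21.2 and 16.7 CPM in MSC-TPr. Its lowest Ctl MSC and highest MSC-TPr values nearly touched, and Ctl MSC 1 carried most of the difference. Its difference over all libraries, −1.14 in log2 (SE 0.46, edgeR adjusted p = 0.318), was −0.30 without the pair numbered 1 (edgeR adjusted p = 0.176) and −1.37 with the covariate (edgeR adjusted p = 0.00551). Sema4g, a membrane semaphorin (chromosome 19, 44989101 to 45003397), was near the floor, at 0.725, 1.66 and 1.93 CPM against 0.830, 0.237 and 0.510 CPM, and its groups overlapped through the pair numbered 1. The fitted log2 fold change was −1.44 (SE 0.58, edgeR adjusted p = 0.318), −2.19 without that pair (edgeR adjusted p = 0.00782) and −1.02 with the covariate (edgeR adjusted p = 0.115).

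**Figure D2:**
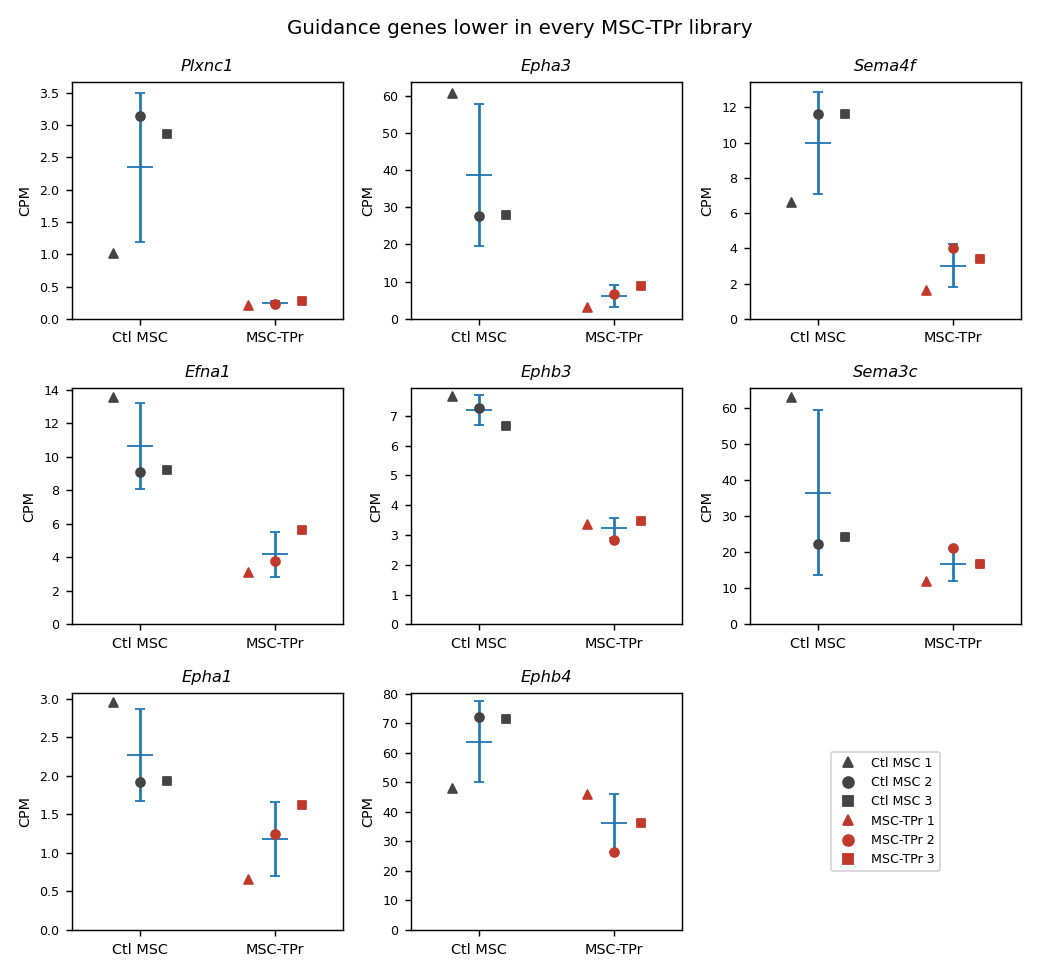
CPM (vertical axes, one scale per gene) of the 8 guidance genes whose groups did not overlap, in Ctl MSC (grey) and MSC-TPr (red), with library 1 as a triangle, 2 as a circle, 3 as a square and the mean ± SD of 3 libraries as the blue bar. Ephb3 was even within each label (6.67 to 7.67 and 2.84 to 3.48 CPM), whereas Ephb4 of Ctl MSC 1 and MSC-TPr 1 lay next to each other at 47.9 and 46.2 CPM.

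The sequences before the start sites of 4 of these genes are shown because the genes stand for both patterns: Plxnc1, Epha3 and Sema4f had non-overlapping groups, and Sema7a had the largest rise without the libraries numbered 1. They come from RefSeq promoters of GRCm38.p6, which matched 53 of the 61 genes. Each is the 250 bases before the start, 5′ to 3′ on the gene's strand: chr10:94944846-94945095 (minus) for Plxnc1, chr16:63864176-63864425 (minus) for Epha3, chr6:82939770-82940019 (minus) for Sema4f and chr9:57939862-57940111 (plus) for Sema7a. Capitals mark, on either strand, the GC box GGGCGG and the core of the interferon-stimulated response element (ISRE) in Plxnc1, the CCAAT box CCAAT in Sema4f and the GC box in Sema7a, and Epha3 held none of the searched motifs.
Plxnc1: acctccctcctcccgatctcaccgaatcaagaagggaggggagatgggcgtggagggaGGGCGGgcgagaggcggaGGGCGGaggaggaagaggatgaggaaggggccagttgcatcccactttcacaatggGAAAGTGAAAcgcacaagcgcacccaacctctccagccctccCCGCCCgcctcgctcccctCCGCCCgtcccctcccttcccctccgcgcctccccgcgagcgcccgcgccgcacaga
Epha3: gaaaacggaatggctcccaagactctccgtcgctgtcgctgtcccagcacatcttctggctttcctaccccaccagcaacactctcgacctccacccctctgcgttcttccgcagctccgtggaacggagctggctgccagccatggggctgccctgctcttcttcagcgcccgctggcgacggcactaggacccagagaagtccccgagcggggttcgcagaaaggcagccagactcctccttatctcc
Sema4f: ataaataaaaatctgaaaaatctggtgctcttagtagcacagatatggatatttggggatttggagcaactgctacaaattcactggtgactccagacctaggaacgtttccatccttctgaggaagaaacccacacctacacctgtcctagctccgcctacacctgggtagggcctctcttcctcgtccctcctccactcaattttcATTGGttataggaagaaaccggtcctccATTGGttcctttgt
Sema7a: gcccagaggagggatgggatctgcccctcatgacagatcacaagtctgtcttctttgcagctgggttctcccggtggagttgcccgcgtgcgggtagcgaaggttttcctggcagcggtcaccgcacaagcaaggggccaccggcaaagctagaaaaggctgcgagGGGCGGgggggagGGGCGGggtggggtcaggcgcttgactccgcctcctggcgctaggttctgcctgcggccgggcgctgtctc

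Over all 67 promoters of guidance genes, 74.6% held a GC box, against 32.7% of the 32851 promoters in the table, and median GC content was 64.4% against 52.4%. CCAAT occurred in 28.4% (33.8% of all), TATAAA in 1.49% (12.4%) and the cell cycle homology region TTTGAA in 8.96% (16%). The ISRE core was found in 2.99% of them against 2.98% of all promoters, and the E2F sites TTTCGCGC and TTTGGCGC in 0% against 0.256% and 0.417%. None of the motifs overlapped another in the 4 promoters shown. A match describes letters and not a site in use.

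For other guidance genes the libraries high in cell division all lay on one side of the rest. Ctl MSC 1, MSC-TPr 2 and MSC-TPr 3 were all higher than the other libraries for 10 of the 43 guidance genes (23.3%) and all lower for another 10 (23.3%), beside 23% and 21.7% of all tested genes, so the shares were near the background. Higher were the ligands Sema7a, Sema3d, Sema4a, Sema6b, Efnb1, Efnb2 and Ntn4 and the receptors Unc5c, Nrp1 and Plxna2. Lower were Sema3b, Sema4c, Sema4d, Sema4g, Sema6c and Efna4 and the receptors Plxna1, Plxna3, Plxnb1 and Epha7. Of these 20 genes, Plxnb1, Ntn4, Sema3d and Sema6b were also called lower in MSC-TPr with the cell division covariate.

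Sema7a, a GPI-anchored semaphorin that binds plexin C1 and integrins (chromosome 9, 57940112 to 57962865), measured 12.4, 1.12 and 1.10 CPM in Ctl MSCs against 1.72, 18.6 and 18.5 CPM in MSC-TPr. Ctl MSC 1 stood with MSC-TPr 2 and 3, and MSC-TPr 1 with Ctl MSC 2 and 3. Over all libraries its log2 fold change was 1.41 (SE 1.2, edgeR adjusted p = 0.629), and it was 4.06 without the pair numbered 1 (edgeR adjusted p = 0.000112) and 0.62 with the covariate (edgeR adjusted p = 0.0642). The gene of its receptor, Plxnc1, was instead low in all 3 MSC-TPr libraries, as given above.

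Unc5c, a netrin receptor that mediates repulsion (chromosome 3, 141465216 to 141834924), split in the same way, at 25.2, 5.50 and 4.96 CPM against 2.60, 23.1 and 41.3 CPM. The log2 fold change was 0.91 over the 6 libraries (SE 1.02, edgeR adjusted p = 0.724), 2.63 without the pair numbered 1 (edgeR adjusted p = 0.00157) and −0.18 with the covariate (edgeR adjusted p = 0.768). Sema4a, a membrane semaphorin known from immune cells, was low, at 0.966, 0.534 and 0.110 CPM and 0.664, 0.769 and 1.11 CPM, and was not called in any of these fits. Efnb2, the ephrin-B2 ligand of Ephb4, measured 17.2, 13.3 and 11.9 CPM against 8.25, 21.1 and 27.4 CPM, and was called higher only without the pair numbered 1 among the 3 fits (0.95, edgeR adjusted p = 0.00779). Sema3d, a secreted class 3 semaphorin, measured 32.1, 8.33 and 8.21 CPM against 4.70, 12.8 and 18.1 CPM. It was called higher without the pair numbered 1 (0.91, edgeR adjusted p = 0.0158) and lower with the covariate (−0.94, edgeR adjusted p = 0.0174).

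Ntn4, a laminin-binding netrin and the more abundant of the 2 reported netrins (chromosome 10, 93640681 to 93747207), measured 15.8, 5.71 and 6.29 CPM in Ctl MSCs against 1.94, 7.10 and 7.14 CPM in MSC-TPr. The libraries numbered 1 lay at both ends and the others close together. Its log2 fold change was −0.78 (SE 0.61, edgeR adjusted p = 0.601), 0.25 without that pair and −1.34 with the covariate (edgeR adjusted p = 0.00811).

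In the opposite direction, Sema3b, a secreted semaphorin that signals through neuropilins (chromosome 9, 107597674 to 107609229), measured 0.845, 4.003 and 3.64 CPM against 1.55, 0.296 and 1.11 CPM. Sema6c, a transmembrane semaphorin of the class that binds A-type plexins (chromosome 3, 95160457 to 95174024), was at 1.69, 7.79 and 7.17 CPM against 4.70, 0.710 and 2.23 CPM. Efna4, an ephrin-A ligand (chromosome 3, 89333390 to 89338028), was at 3.44, 5.44 and 5.95 CPM against 4.32, 1.24 and 1.39 CPM. In all 3 genes the pair numbered 1 reversed the order of the other libraries. Their log2 fold changes over the 6 libraries were −1.51, −1.12 and −1.10, with edgeR adjusted p = 0.403, 0.549 and 0.405. Without the pair numbered 1 they were −2.36, −2.29 and −2.10, with edgeR adjusted p = 0.00986, 0.00783 and 0.00126, and none was called with the covariate. Efna4 shares 10.5% of its exon length with 4731419I09Rik on the other strand.

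**Figure D3:**
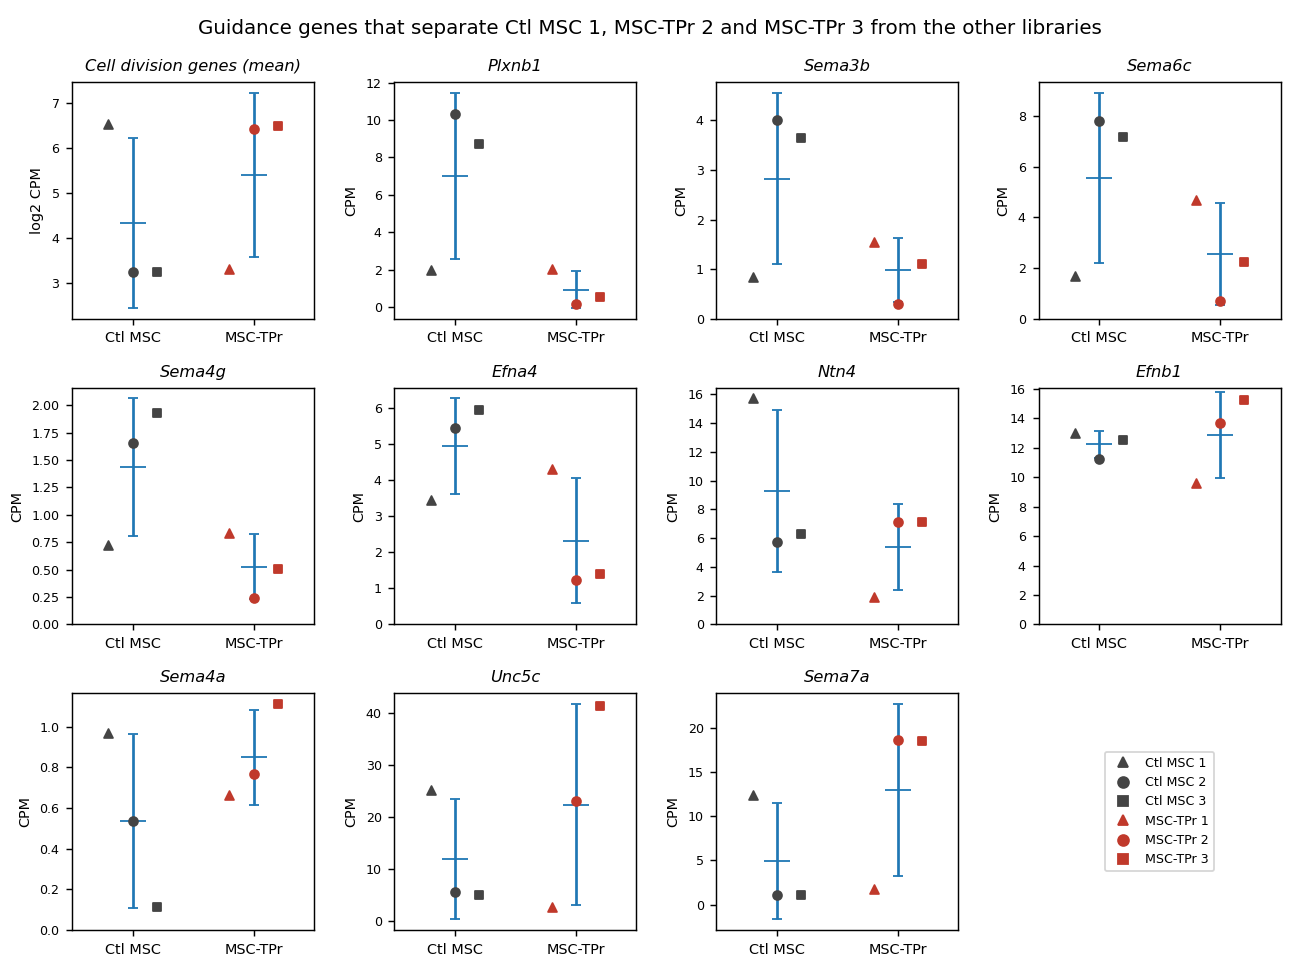
Mean log2 CPM of 22 cell division genes (first panel) and CPM of 10 guidance genes (other panels, one scale each) in each library, with Ctl MSC in grey, MSC-TPr in red, library 1 as a triangle, 2 as a circle and 3 as a square. Sema7a shows the split most clearly, with Ctl MSC 1 at 12.4 CPM beside MSC-TPr 2 and 3 at 18.6 and 18.5, and the other libraries at 1.10 to 1.72 CPM.

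Of the 20 guidance genes called without the libraries numbered 1, 7 (35%) kept their direction when MSC-TPr 1 was set against Ctl MSC 1. This share was near that of all genes called in that fit, 1448 of 4854 (29.8%). The 7 were all among the 16 called lower, namely Plxnc1, Epha3, Efna1, Sema4f, Ephb3, Ephb4 and Sema3a, and 0 of the 4 called higher (Sema7a, Unc5c, Efnb2 and Sema3d) did. The share over all genes was not split by direction, so no difference between the directions is read from these counts. The pair numbered 1 of Ephb4 and Sema3a differed by only −0.05 and −0.03 in log2 ratio.

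The most abundant members, like all 43 reported genes, were not called by edgeR over the 6 libraries. Compared per kilobase of exon, mean levels over the 6 libraries were 39.9 CPM per kb for Plxnb2 (range 29.0 to 46.3), 29.8 for Plxna1 (17.5 to 39.5), 23.6 for Sema3a, 21.9 for Epha2, 21.0 for Nrp2 and 16.3 for Unc5b, and neighbours in this order overlapped in range. The lowest reported were Sema4d at 0.0918, Sema4g at 0.113, Sema4a at 0.128 and Plxnc1 at 0.155 CPM per kb. The 6 highest thus held a secreted class 3 semaphorin (Sema3a), a neuropilin (Nrp2) and an A-type plexin (Plxna1). Nrp1, the neuropilin that binds Sema3a, was at 6.76 CPM per kb. Plxna1 shares 10.7% of its exon length with Gm26811 on the other strand.

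**Figure D4:**
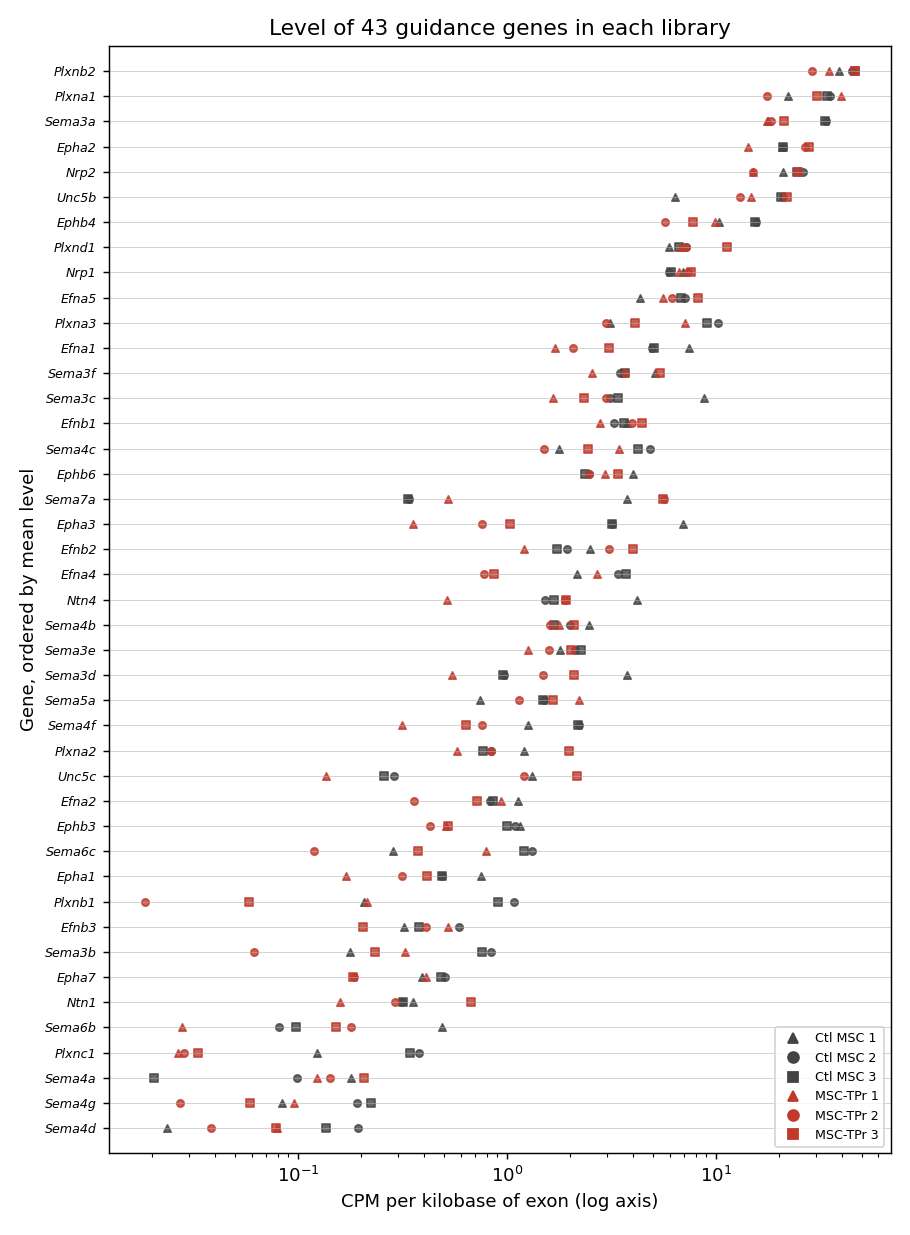
Level per kilobase of exon (CPM per kb, logarithmic horizontal axis) of each of the 43 reported guidance genes in each of the 6 libraries, with Ctl MSC in grey, MSC-TPr in red, library 1 as a triangle, 2 as a circle and 3 as a square. Levels run from Plxnb2, at a mean of 39.9 CPM per kb, to Sema4d, at 0.0918 CPM per kb.

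Sema3a, the neuropilin-binding ligand (chromosome 5, 13125414 to 13602565), measured 247, 465 and 462 CPM in Ctl MSCs against 242, 255 and 294 CPM in MSC-TPr. Ctl MSC 1 lay within the MSC-TPr range, so the groups overlapped. The log2 fold change was −0.57 (SE 0.27, edgeR adjusted p = 0.385), −0.75 without the pair numbered 1 (edgeR adjusted p = 0.00547) and −0.39 with the covariate (edgeR adjusted p = 0.305). Nrp2, the neuropilin that serves Sema3c and Sema3f (chromosome 1, 62703285 to 62818695) measured 249, 308 and 289 CPM against 179, 178 and 292 CPM, for which the log2 fold change was −0.39 (SE 0.24, edgeR adjusted p = 0.501), −0.35 without the pair numbered 1 (edgeR adjusted p = 0.264) and −0.41 with the covariate (edgeR adjusted p = 0.264). MSC-TPr 1 and 2 lay below the Ctl MSC libraries and MSC-TPr 3 among them. Nrp1, the neuropilin that binds Sema3a, ranged from 58.4 to 67.9 CPM in Ctl MSCs and from 65.3 to 74.1 CPM in MSC-TPr.

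Plxnb2, a receptor for class 4 semaphorins (chromosome 15, 89155549 to 89180788), measured 298, 346 and 358 CPM against 267, 224 and 356 CPM. Only MSC-TPr 1 and 2 lay below all Ctl MSC libraries, and the log2 fold change was −0.24 (SE 0.21, edgeR adjusted p = 0.638), with −0.28 and −0.22 in the other 2 fits (edgeR adjusted p = 0.345 and 0.484). Epha2, the EphA receptor best known in epithelium (chromosome 4, 141301240 to 141329384), was even in Ctl MSCs, at 96.9, 97.6 and 98.0 CPM, and spread in MSC-TPr, at 66.4, 124 and 131 CPM. The fitted log2 fold change was 0.13 (SE 0.27, edgeR adjusted p = 0.851), turning to −0.0751 with the covariate (edgeR adjusted p = 0.841). Without the pair numbered 1 it was 0.38 (edgeR adjusted p = 0.0308), under the minimum of 0.5 for a call. Unc5b, a netrin receptor also found on vessels (chromosome 10, 60762593 to 60831581), measured 40.1, 132 and 128 CPM against 92.3, 82.0 and 137 CPM, with Ctl MSC 1 the lowest, and the log2 fold change was 0.05 (SE 0.46, edgeR adjusted p = 0.970), −0.24 without the pair numbered 1 (edgeR adjusted p = 0.430) and 0.47 with the covariate (edgeR adjusted p = 0.495).

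The leading ephrins were not called over the 6 libraries or in the other 2 fits. Efna5, encoding ephrin-A5 (chromosome 17, 62604184 to 62881317), measured 17.5, 28.7 and 27.5 CPM against 22.5, 24.9 and 33.1 CPM, and Efnb1, encoding ephrin-B1 (chromosome X, 99136130 to 99148991), 13.0, 11.2 and 12.5 CPM against 9.63, 13.7 and 15.3 CPM. Both overlapped between groups, and their log2 fold changes were 0.13 and 0.07, with edgeR adjusted p = 0.859 and 0.909. Without the pair numbered 1 they were 0.0513 and 0.29, with edgeR adjusted p = 0.818 and 0.165, and with the covariate 0.20 and −0.0654, with edgeR adjusted p = 0.623 and 0.837.

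By family, lower over the 6 libraries were 13 of 16 reported semaphorins, 5 of 7 plexins, 3 of 4 EphA receptors, 3 of 3 EphB receptors (Ephb6 by a log2 fold change under 0.01 in size), 3 of 4 ephrin-A ligands, 1 of 3 ephrin-B ligands, 1 of 2 neuropilins, 1 of 2 netrins and 0 of 2 Unc5 receptors. The 9 with an unadjusted p under 0.05 were 3 semaphorins, 2 plexins, 2 EphB receptors, 1 EphA receptor and 1 ephrin-A ligand. Sema5a, a transmembrane semaphorin, was the one member called higher with the covariate (0.73, edgeR adjusted p = 0.0400), from 13.95, 28.2 and 27.9 CPM against 41.3, 21.3 and 31.2 CPM, and its groups overlapped.

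Of the 43 reported genes, 36 had at least 10 reads in every library. Because the minimum asks for as many libraries as a group holds, a gene could pass through one group alone, as Plxnc1 did with 17, 59 and 52 reads in Ctl MSCs. The other 18 genes had at most 36 reads in any library, and Epha10 and Epha5 had none. They were Efna3, Epha10, Epha4, Epha5, Epha6, Epha8, Ephb1, Ephb2, Ntn3, Ntn5, Plxna4, Plxnb3, Sema3g, Sema5b, Sema6a, Sema6d, Unc5a and Unc5d. Just outside the minimum, Epha4 had 0, 1 and 0 reads in Ctl MSCs and 13, 9 and 15 in MSC-TPr (DESeq2 adjusted p = 0.0129, not tested by edgeR after its filter), and Sema3g 4, 4 and 2 against 3, 11 and 36. Without both libraries numbered 1, Sema3g passed edgeR's filter and was called higher (2.83, edgeR adjusted p = 0.0195). Of the 18, Epha4 was higher and Ntn3 and Unc5a were lower in every MSC-TPr library than in every Ctl MSC library, Ntn3 and Unc5a at no more than 7 reads. Just inside the minimum, Sema6b had 32, 6 and 7 reads against 2, 12 and 13, and Sema4d 3, 28 and 19 against 11, 5 and 13.

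Among 87 genes of receptors, co-receptors and intracellular effectors that act with these proteins, 67 could be tested, and edgeR called 1 lower and 0 higher over the 6 libraries, beside 0.401% and 0.0251% of all tested genes. Without the pair numbered 1 it called 7 of the 67 lower and 11 higher, both smaller shares than the 19.4% and 20.6% of all tested genes. With the covariate it called 5 lower and 1 higher, beside 7.38% and 4.78%, the first near that share and the second below it. The 1 over the 6 libraries was L1cam, an adhesion molecule known to join neuropilin-1 in Sema3a signalling. L1cam measured 12.7, 8.33 and 7.88 CPM in Ctl MSCs against 1.49, 1.30 and 1.95 CPM in MSC-TPr. Every MSC-TPr library was below every Ctl MSC library, and L1cam fell by 2.60 on the log2 scale (SE 0.32, edgeR adjusted p = 0.0350), also without the pair numbered 1 (−2.29, edgeR adjusted p = 0.00126) and with the covariate (−2.72, edgeR adjusted p = 0.000817). At an unadjusted p under 0.05 in edgeR, 3 of the 67 were higher (Src, Rnd1 and Gipc1) and 3 lower (L1cam, Vav3 and Ngef). Both shares were below the 6.81% and 8.23% of all tested genes. The median log2 fold change of the 67 was 0.05, beside 0.01 over all tested genes. DESeq2 also called 1 lower and 0 higher, beside 3.24% and 1.8% of its 13253 genes.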

How the data were processed

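RNA-seq libraries of 3 Ctl MSC and 3 MSC-TPr samples were analysed, grouped by their labels. The authors deposited raw read counts per gene. Per the submitters' processing notes, CASAVA 1.8.2, Trimmomatic 0.35 and TopHat2 2.1.0 were used with mm10, and per the study's methods reads were counted with Htseq-count (annotation and strand setting not given in the sources used here). Rows naming no gene (13.8 to 20.8% of listed reads) were left out, and CPM were computed from the rest.

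Counts were TMM-normalised and tested with edgeR 4.0.16 (filterByExpr, quasi-likelihood test, R 4.3.3) over all genes, with Benjamini-Hochberg adjustment and a gene was called where the adjusted p was under 0.05 and the log2 fold change 0.5 or more in size. Alternatives were both libraries numbered 1 left out, a covariate for cell division (mean log2 CPM of 22 genes), a replicate block, DESeq2 1.42.0, RLE factors, other filters and folds, and each library left out. The scripts were tested on simulated data. Members and lists were chosen with earlier results of these data known. Values in every library are given for members called, with an unadjusted p under 0.05 or with non-overlapping groups over the 6 libraries, the most abundant of each family, and the 3 further members highest and lowest without the libraries numbered 1. Efnb2, Sema3d, Sema5a, Ephb6, Epha4, Sema3g and L1cam were added after their values were seen. Coordinates are from GENCODE vM21 on mm10 and promoters from RefSeq. One haematopoietic marker of the list is not reported here. Intervals for single counts are not given, and the floor of 3 reads covers counting error only.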

Additional observations from a re-analysis of the deposited data

How the results depend on the processing

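Over the 6 libraries edgeR called 0 guidance genes higher and 0 lower. Higher calls became 4 without both libraries numbered 1 and 1 with the cell division covariate. Lower calls became 16 without both libraries numbered 1, 12 with the covariate and 6 by DESeq2, and ranged from 0 to 1 when each library was left out. Over all genes the 3 higher calls became 239 by DESeq2, 2498 without both libraries numbered 1, 572 with the covariate and 0 with the replicate block, with 0 to 11 on leaving out each library. The 48 lower calls became 430, 2356, 884 and 0 under the same settings, with 0 to 105 on leaving out each library. Of the 43 members, 8 turned in direction without both libraries numbered 1 and 8 with the covariate. Among the 24 named by rule these were Ntn4 (0.25) and Unc5b (−0.24) without both libraries numbered 1, and Efnb1 (−0.0654), Epha2 (−0.0751) and Unc5c (−0.18) with the covariate. Of the others Sema3d turned to 0.91 and was called higher without both libraries numbered 1. On leaving out each library the log2 fold change ranged from −0.0639 to 0.25 for Efna5, −0.0607 to 0.25 for Efnb1, −0.0253 to 0.39 for Epha2 and −0.32 to 0.30 for Unc5b. The cause was not tested.

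RLE factors, no filter on low counts and a minimum of 10 counts in 3 libraries kept the direction and the side of the threshold of all 24 named members. With the replicate block all 24 kept their direction and 0 were called. In that fit 5 members (11.6%) were lower at an unadjusted p under 0.05 in edgeR. The share of all genes at that p was not computed there, so no excess is read from this count. Deviations of same-numbered libraries correlated at −0.76, −0.59 and −0.60. These signs follow the split of Ctl MSC 1, MSC-TPr 2 and MSC-TPr 3 from the rest, so they cannot show whether the numbers pair libraries. The doubt about the labels of Ctl MSC 1 and MSC-TPr 1 limits every comparison over the 6 libraries, and genes near 3 reads, such as Plxnc1 in MSC-TPr, are imprecise.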
